A study of Mus musculus with 14 samples.

Results

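The regional difference between normal cortex and normal hippocampus was read from the control mice of a series on telomere protection in neurons. Control cortex (4 samples) was set against control hippocampus (3 samples), which together are 7 of the 14 samples of the series. All samples came from C57BL/6 mice aged 3 months, and the control groups carry the genotype label control, which the design text calls WT. The other groups were depleted of TRF2, the shelterin protein that shields chromosome ends and is encoded by Terf2, through Cre expressed under control of Dcx, which marks newborn and migrating neurons (3 cortex and 3 hippocampus samples). They serve here as a second reading of the regional difference, although they are not wild type. The labels of 1 other TRF2-depleted sample contradict each other on the tissue, so it entered no group; whether the pooled TRF2-depleted cortex values include it is not known here. Sex and the animal behind each sample are not given in the labels.

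Total RNA was sequenced, and the authors deposited 1 table per tissue with 1 pooled FPKM value per condition and coding-sequence group. FPKM is the number of fragments scaled by transcript length and by the mapped total, so levels of different genes can be set side by side. The 2 tables list 20492 genes in common. Each gene's control values were summed over its rows, and the 11396 genes with at least 1 FPKM in either tissue were kept. Because replicates were pooled by the authors and the tissues were never compared in 1 run, no spread between samples and no test of a regional difference can be given. How deeply each sample was sequenced is unknown. Ratios below are log2 of hippocampus over cortex control FPKM, so positive values are higher in hippocampus, and a gene is counted as different at 2-fold or more in either direction.

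The cortex is a sheet of layers, in which upper layers connect cortical areas with one another, layer 4 receives much of the thalamic input, and deep layers project to the thalamus, brainstem and spinal cord. The hippocampus holds the granule neurons of the dentate gyrus and the pyramidal neurons of fields CA1, CA2 and CA3, which are linked in a largely one-way circuit from the dentate gyrus to CA3 and on to CA1. Both are parts of the pallium, use glutamate as their main transmitter, and contain similar classes of interneurons, glia and vessel cells. In tissue RNA, fewer cells of a type and less RNA per cell cannot be told apart.

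Values in the 2 tables were on a similar scale. Control FPKM summed to 161467 in cortex and 168036 in hippocampus. A single gene model, Gm20594, took 8.0% of the first sum and 5.47% of the second. The median log2 ratio over the 11352 genes above 0 in both tissues was 0.10 (quartiles -0.23 and 0.41), and list medians below are given relative to that median unless called unadjusted. Of these genes, 957 were at least 2-fold higher in hippocampus (8.43% of all) and 914 at least 2-fold lower (8.05%). A further 44 genes were listed at 0 in 1 tissue, 18 of them in cortex and 26 in hippocampus. At the edge of the threshold, Nsmf (58.1 FPKM in cortex and 116 FPKM in hippocampus) and Garem (4.22 and 8.45 FPKM) lay just inside on the hippocampal side, with Rbm12 (3.01 and 6.01 FPKM) and Mtcp1 (1.90 and 3.79 FPKM) just outside. On the cortical side Tmem215 (2.69 and 1.35 FPKM) and Ebag9 (4.77 and 2.38 FPKM) lay just inside, with Tnnt2 (1.15 and 0.574 FPKM) and AF529169 (1.43 and 0.715 FPKM) just outside.

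**Figure D1:**
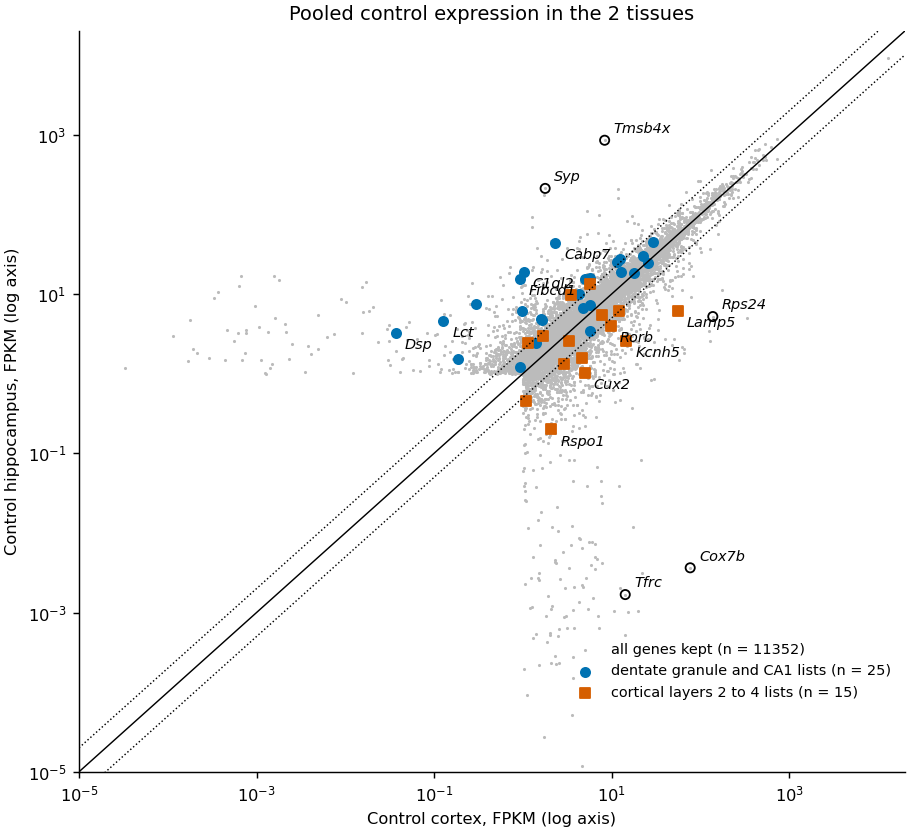
Pooled control FPKM of each gene in cortex (horizontal, log axis) and hippocampus (vertical, log axis), with equality as a solid line and 2-fold differences as dotted lines. Markers of dentate granule and CA1 neurons (blue circles) lie mostly above the lines and those of cortical layers 2 to 4 (orange squares) mostly below, while Syp, Cox7b and Tfrc (open circles) lie farther out than nearly all of them.

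The largest ratios mostly had 1 tissue near 0. Among genes of at least 5 FPKM in the higher tissue and 2-fold different in the same direction in the TRF2-depleted groups, the 15 largest ratios included Slc4a3, Alkbh6, Snrpc, Braf and Syp, and the 15 smallest included Btg3, Ppt1, Cox7b and Tfrc. Syp encodes synaptophysin, a protein of nearly all synaptic vesicles, and was at 1.79 FPKM in cortex and 212 FPKM in hippocampus. Cox7b, a subunit of cytochrome c oxidase, was at 76.9 FPKM in cortex and 0.00365 FPKM in hippocampus. Tfrc, the transferrin receptor, was at 14.3 FPKM in cortex and 0.00168 FPKM in hippocampus. In 14 of the 15 largest and 15 of the 15 smallest ratios the lower tissue was under 0.05 FPKM. Likewise, Tuba4a (98.4 FPKM), Eif4a1 (66.7 FPKM) and Epn1 (16.9 FPKM) in hippocampus were listed at 0 in cortex, and Rps6kc1 (8.09 FPKM), Nme3 (7.64 FPKM) and Ak6 (5.82 FPKM) in cortex were listed at 0 in hippocampus.

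Such genes also carried different loci in the 2 tables more often. The deposited locus of a gene, the span that the authors' run assigned to it, was the same in both tables for 6959 of the 11352 genes (61.3%). It differed for 12 of the 15 largest and 9 of the 15 smallest ratios. Across all genes, the share with a differing locus was 33.8% where the ratio was under 0.5 in size and 63.6% where it was 8 or more. Values under 0.05 FPKM in 1 tissue made up 28.4% of genes with ratios of 4 to 8 in size and 99.2% of those beyond 8. The part of these locus differences in the ratios was not tested. The counts of most lists are therefore also given with matched loci, that is for the 6164 genes with the same locus and at least 1 FPKM in both tissues, of which 4.07% were at least 2-fold higher in hippocampus and 3.16% at least 2-fold lower. That restriction removes genes that are close to absent from 1 tissue, which include some of the sharpest markers.

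**Figure D2:**
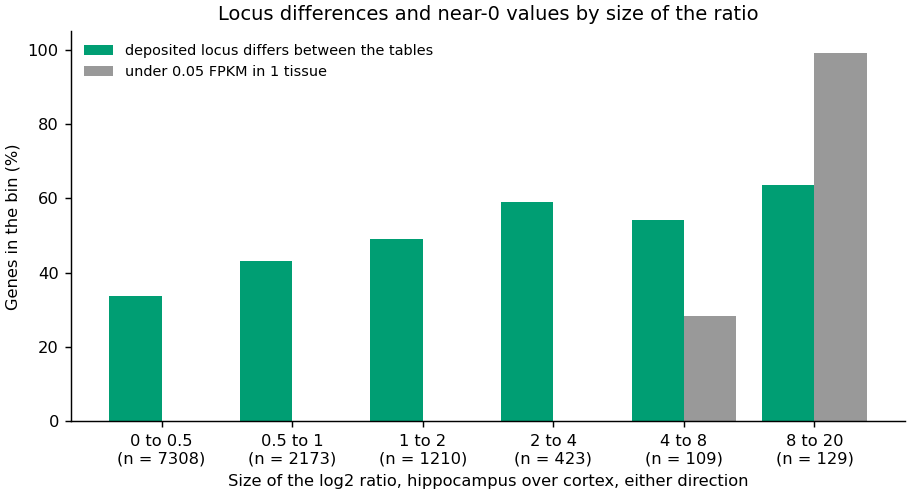
Share of genes (%) whose deposited locus differs between the cortex and hippocampus tables (green) and share under 0.05 FPKM in 1 tissue (grey), by size of the control log2 ratio in either direction, with the number of genes in each bin. The differing share goes from 33.8% in the bin of smallest ratios to 63.6% in the bin of largest, and near-0 values make up 99.2% of the last bin.

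The TRF2-depleted groups gave the same side for most of these differences. Of the genes at least 2-fold higher in control hippocampus that had a ratio in the TRF2-depleted pair, 582 of 945 (61.6%) were at least 2-fold higher there too, against 8.55% of all genes, and 26 were at least 2-fold lower. On the cortical side 564 of 906 (62.3%) kept a 2-fold difference, against 7.63% of all genes, and 16 were 2-fold the other way. The samples differ between the 2 readings, but each tissue's control and TRF2-depleted values come from the same run, so a division of reads particular to that run would appear in both.

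Dentate granule neurons, the densely packed cells that receive cortical input to the hippocampus, were marked by higher levels in hippocampus. Of 16 measured markers, 9 were at least 2-fold higher in hippocampus and 0 lower, with a median 1.26 above that of all genes. With matched loci 4 of 7 were higher and 0 lower. Dsp, which encodes the desmosomal protein desmoplakin (chromosome 13 from 38151294 to 38198577, mm10), was at 0.0372 FPKM in cortex and 3.27 FPKM in hippocampus, a ratio of 6.46. Lct, the lactase gene, was at 0.128 and 4.66 FPKM (5.19). C1ql2, a secreted C1q-like protein of mossy fibre synapses (chromosome 1 from 120340582 to 120343174), was at 1.02 and 19.2 FPKM (4.23). In cortex the first 2 of these were far under 1 FPKM.

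The other dentate markers differed by smaller amounts. Tdo2, the tryptophan dioxygenase, had a ratio of 3.05 and Slc29a4, a monoamine and nucleoside transporter, one of 2.66. Stxbp6, a SNARE-binding protein also called amisyn, was at 4.96 and 15.7 FPKM (1.66). Prox1, the homeobox factor that defines granule neurons, was at 1.60 and 4.88 FPKM (1.61) with a differing locus. Dock10 (1.52) and Sema5a (1.22) completed the 2-fold set. Among the members within 2-fold, Calb1, the calcium buffer calbindin, was at 25.4 and 24.5 FPKM (-0.06). Fam163b had a ratio of 0.06 and Npnt one of -0.74, while C1ql3 was at 29.3 and 45.4 FPKM (0.63). Plk5 was at 2.73 FPKM in cortex and listed at 0 in hippocampus.

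Markers of CA1, the output field of the circuit, were higher as well. Of 9 measured, 6 were at least 2-fold higher in hippocampus and 0 lower, with a median 1.07 above that of all genes. Only 2 of the 9 had matched loci, and both were higher. Fibcd1, a receptor for acetylated groups, was at 0.931 FPKM in cortex and 15.5 FPKM in hippocampus (4.06). Cabp7, a calcium-binding protein, was at 2.32 and 43.8 FPKM (4.23), although its deposited locus is shared with another gene. Spink8, a protease inhibitor, was at 0.296 and 7.61 FPKM (4.69). For these 3 markers the deposited loci differed between tables. Both markers with matching loci differed less: Wfs1, the wolframin of the endoplasmic reticulum, was at 11.4 and 25.5 FPKM (1.16), and Pou3f1, a POU-domain factor, at 5.78 and 16.0 FPKM (1.47). Pex5l (0.43) and Man1a (0.37) were the closest to equality.

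CA2 and CA3 were less distinct. Of 7 measured CA2 markers, 3 were at least 2-fold higher and 1 lower, and with matched loci 2 of 2 were higher, Amigo2 and Sostdc1. Amigo2, an adhesion protein, was at 1.29 and 4.86 FPKM (1.92), and its deposited locus is shared with another gene. Sostdc1 was at 1.09 and 2.97 FPKM (1.44) in control and at 0.121 and 4.60 FPKM in the TRF2-depleted groups. Rgs14, a regulator of G-protein signalling, was at 6.13 and 15.9 FPKM (1.38) with a differing locus. Pcp4, a calmodulin-binding peptide also made in deep cortical layers, went the other way at 175 FPKM in cortex and 11.3 FPKM in hippocampus (-3.95), with a differing locus. Of 10 CA3 markers, 3 were at least 2-fold higher and 3 lower, with a median 0.14 above that of all genes, and with matched loci 1 of 3 was higher and 2 lower. Homer3 was at 1.03 and 8.58 FPKM (3.06), Ociad2 at 6.69 and 21.6 FPKM (1.69), and Grik4, a kainate receptor subunit of mossy fibre synapses, at 3.29 and 7.62 FPKM (1.21). Ociad2 and Grik4 had differing loci, and in the TRF2-depleted groups Grik4 was at 3.47 and 3.32 FPKM (-0.06). Prss23 (-2.27, with a differing locus), Coch (-1.82) and Plagl1 (-1.04) were higher in cortex, so the CA3 list as chosen did not separate the tissues. Iyd was listed at 0 in cortex and was at 1.28 FPKM in hippocampus. Of the mossy cell and subiculum genes, Nts, the neurotensin precursor, was at 1.13 and 5.87 FPKM (2.38), and no other of the 4 measured was 2-fold different.

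**Figure D3:**
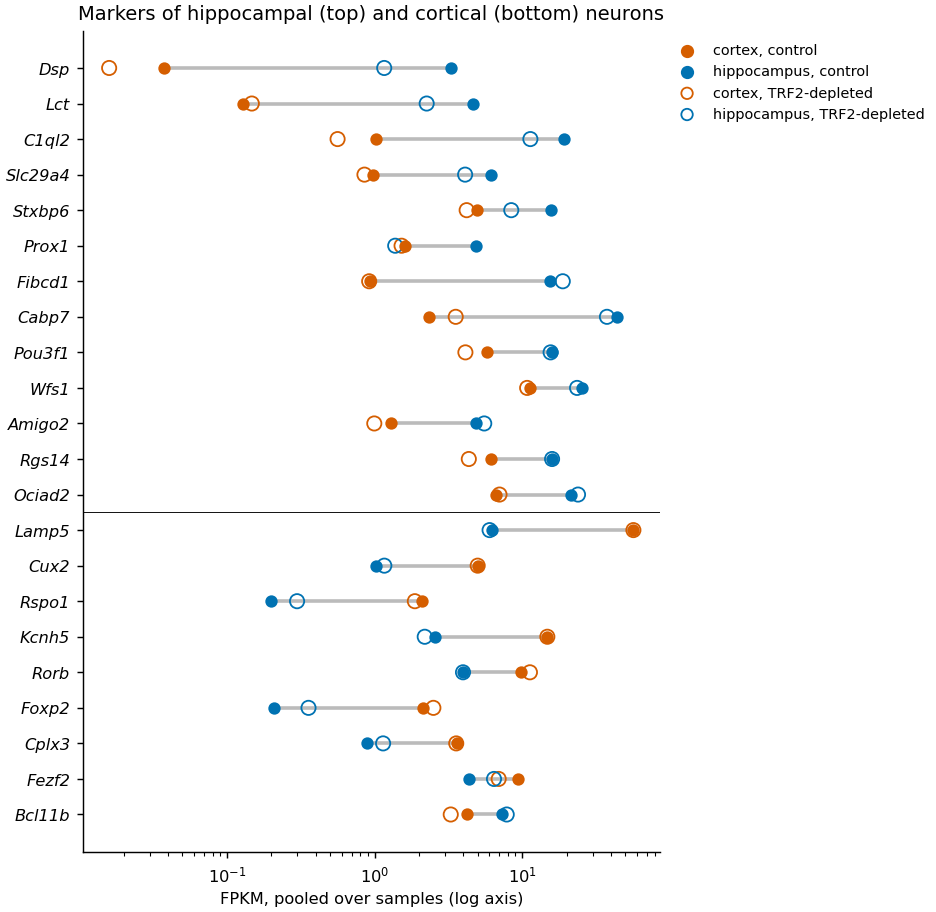
Pooled FPKM (log axis) of 13 hippocampal and 9 cortical marker genes in cortex (orange) and hippocampus (blue), with control as filled points and TRF2-depleted as open circles. From Dsp to Ociad2 the control hippocampus lies to the right of the control cortex, from Lamp5 to Fezf2 to the left, and Bcl11b lies to the right again; for Prox1 the open hippocampal circle sits at 1.38 FPKM beside the cortical values.

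Markers of the upper cortical layers were lower in hippocampus. For layers 2 and 3, 5 of 9 markers were at least 2-fold lower in hippocampus and 2 higher, with a median 1.27 below that of all genes, and with matched loci 3 of 4 were lower. Lamp5, a lysosome-associated membrane protein also found in some interneurons (chromosome 2 from 136057927 to 136069917), was at 56.1 FPKM in cortex and 6.21 FPKM in hippocampus (-3.17). The TRF2-depleted values were nearly the same, at 56.8 and 6.02 FPKM. Cux2, a homeobox factor of upper-layer neurons, had a ratio of -2.29 with a differing locus. Pou3f2 was at 4.63 and 1.59 FPKM (-1.54). Rgs8 (1.48) and Mdga1 (1.08) went the other way, both with differing loci.

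In layer 4, 3 of 6 markers were at least 2-fold lower in hippocampus and 1 higher. With matched loci 1 of 3 was lower and 1 higher, with an unadjusted median of -0.35 against -0.83 for all 6. Rspo1, a secreted activator of Wnt signalling, was at 2.10 and 0.200 FPKM (-3.40). Kcnh5, a voltage-gated potassium channel, was at 14.6 and 2.56 FPKM (-2.51) with a differing locus. Rorb, the nuclear receptor that marks layer 4, was at 9.80 and 3.99 FPKM (-1.30). All 3 kept a 2-fold difference in the TRF2-depleted groups, at -2.65, -2.76 and -1.51. Hsd11b1, the enzyme that regenerates active glucocorticoid, was higher in hippocampus at 5.74 and 13.6 FPKM (1.24).

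Deep-layer markers differed less evenly. In layer 5, 2 of 12 were at least 2-fold lower and 0 higher, and the median lay 0.00 from that of all genes; with matched loci 1 of 5 was lower. Deptor had a ratio of -1.39. Fezf2, the selector factor of subcerebral projection neurons, had one of -1.09 (9.35 and 4.40 FPKM) with a differing locus. In the TRF2-depleted groups the Fezf2 values were 6.94 and 6.45 FPKM (-0.11). Bcl11b, the other factor of those neurons, was at 4.24 and 7.32 FPKM (0.79), also with a differing locus. Bcl11b is known to be made in hippocampal neurons too. In layer 6, Foxp2 was at 2.13 and 0.209 FPKM (-3.35) and Syt6 at 1.90 and 0.136 FPKM (-3.80), whereas Tbr1 (-0.59) and Tle4 (-0.41) differed by less than 2-fold and Hs3st4 was higher in hippocampus (1.63). The deposited locus of Syt6 is shared with another gene, and Syt6 was at 1.90 and 0.979 FPKM in the TRF2-depleted groups (-0.96). Of 9 layer 6 markers 2 were at least 2-fold lower and 1 higher, and the single one with matched loci was within 2-fold. In the TRF2-depleted groups 1 of the 9 was at least 2-fold lower and 0 higher. In layer 6b, 3 of 5 were lower. They were Cplx3, a complexin (3.62 and 0.885 FPKM, -2.03), Drd1a, the D1 dopamine receptor (-1.63), and Ctgf, a secreted matrix protein (-1.22). The 1 that was higher was Nr4a2 (1.32 and 7.27 FPKM, 2.46), with a differing locus. With matched loci 2 of 3 were lower, Drd1a and Ctgf. At a minimum of 5 FPKM only 2 of the layer 6b genes were left and their unadjusted median was 0.62.

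**Figure D4:**
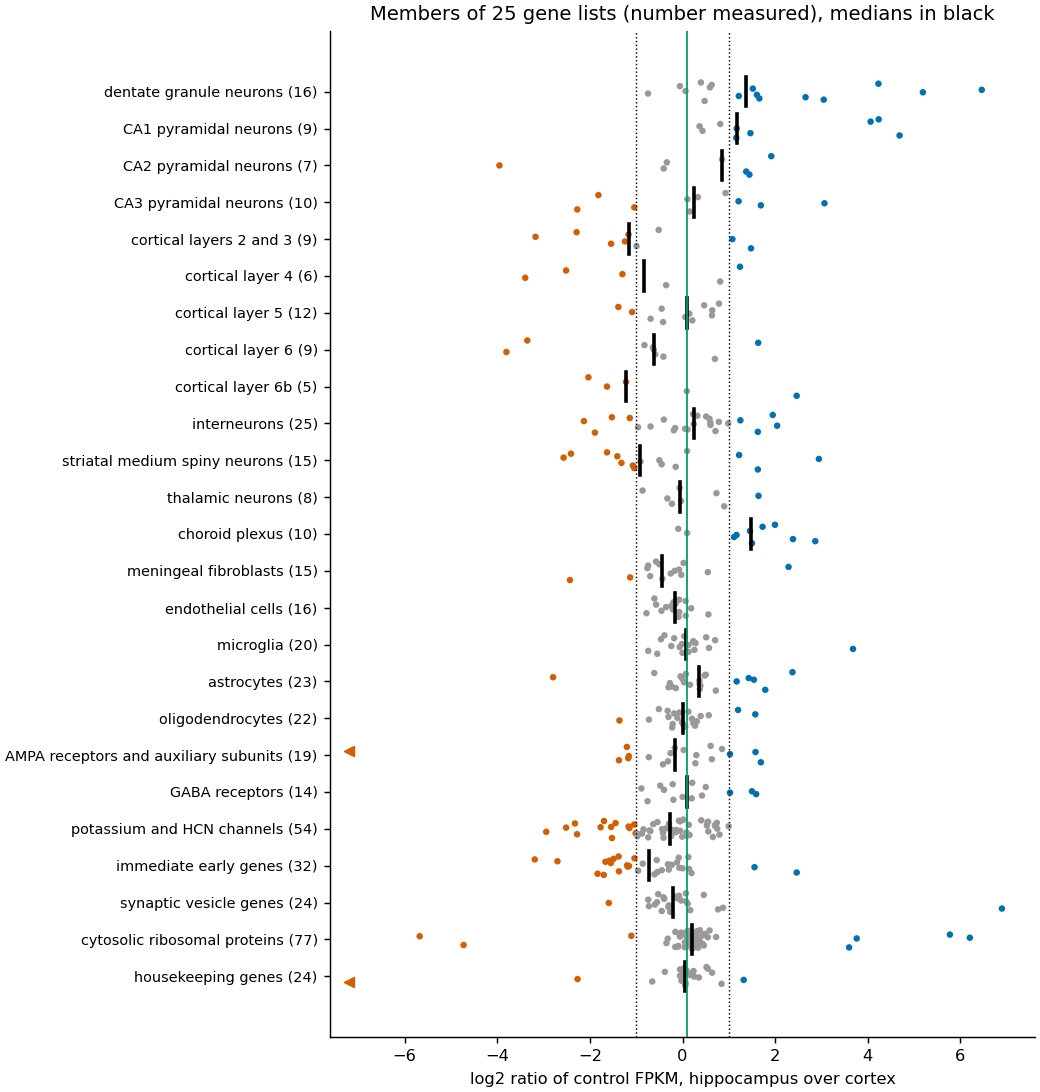
Control log2 ratios (hippocampus over cortex) of the measured members of 25 gene lists, with list medians as black bars, the median of all genes as a green line and 2-fold differences as dotted lines; triangles at the left edge are members below -7. Dentate granule, CA1 and choroid plexus lists lie to the right, lists of cortical layers 2 and 3, striatal neurons and immediate early genes to the left, and vessel and glial lists around the green line.

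Transcription factors of the pallium split by region. Of 46 measured, 10 were at least 2-fold higher in hippocampus and 8 lower, and with matched loci 5 of 19 were higher and 3 lower. On the cortical side, beside the layer factors above, Mef2c, an activity-regulated factor, was at 7.48 and 0.537 FPKM (-3.80). Mef2c had a differing locus, and in the TRF2-depleted groups it was at 3.32 and 0.418 FPKM (-2.99). Rora, a nuclear receptor, had a ratio of -1.05. On the hippocampal side stood the NeuroD family of basic helix-loop-helix factors. Neurod2 was at 9.42 and 30.2 FPKM (1.68), Neurod6 at 21.0 and 50.8 FPKM (1.28) and Neurod1 at 3.24 and 7.04 FPKM (1.12). These 3 family members had the same loci in both tables. Nr2f2, an orphan nuclear receptor, was at 2.28 and 7.50 FPKM (1.72). Zbtb20, a zinc-finger factor of hippocampal pyramidal neurons, had a differing locus. It was at 1.93 and 4.99 FPKM (1.37) in control but at 3.17 and 3.40 FPKM in the TRF2-depleted groups. Lhx9 was listed at 0 in cortex and was at 1.95 FPKM in hippocampus. Pou3f3 (-0.07) and Mef2d (-0.13) were nearly equal.

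Interneuron genes did not move as a block. Of 25 measured, 4 were at least 2-fold higher in hippocampus and 4 lower, with a median 0.14 above that of all genes. With matched loci 1 of 13 was higher and 1 lower. Vip, the peptide of a class that inhibits other interneurons (chromosome 10 from 5639218 to 5647615), was at 16.5 FPKM in cortex and 4.46 FPKM in hippocampus (-1.89), and its ratio in the TRF2-depleted groups was -1.86. Pvalb, the marker of fast-spiking basket cells, was at 29.3 and 15.1 FPKM (-0.96), and Sst, the marker of dendrite-targeting cells, at 118 and 193 FPKM (0.71). Calb2, the calcium buffer calretinin, which is also made by mossy cells and immature granule neurons, was at 2.55 and 9.82 FPKM (1.95). The enzymes that make GABA, Gad1 (0.78) and Gad2 (0.60), and its vesicular transporter Slc32a1 (0.06) differed by less than 2-fold. Among neuropeptides and granins, 3 of 19 were at least 2-fold higher and 4 lower (with matched loci 1 and 2 of 10). Adcyap1, the precursor of PACAP, was at 7.64 and 2.48 FPKM (-1.62) and Crh, which encodes corticotropin-releasing hormone, at 2.63 and 0.913 FPKM (-1.52), while Cck (0.32) and Bdnf (0.13) were close to equal.

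Most measured genes of newborn neurons, a cell population that the adult dentate gyrus keeps producing, differed by less than 2-fold between the tissues. Of 11 measured at 1 FPKM or more, 2 were at least 2-fold higher in hippocampus (Calb2 and Neurod1, both named above) and 0 lower, and the same 2 were higher among 8 with matched loci. Ratios were above 0 for 9 of the 11, with a median 0.25 above that of all genes. With matched loci the unadjusted median was 0.72 against 0.11 for all 6164 genes. In the TRF2-depleted groups the ratio was 1.41 for Calb2 and 0.60 for Neurod1. The list, which holds genes that mature cells also express, summed to 167 FPKM in cortex and 214 FPKM in hippocampus. Stmn1, a microtubule regulator, was at 104.7 and 116.9 FPKM, and Tubb2b, a tubulin, at 18.3 and 36.2 FPKM (0.98). Dcx, the gene whose promoter drives Cre in the depleted mice, was at 2.49 FPKM in cortex and 1.36 FPKM in hippocampus (-0.87). Mki67 (0.164 and 0.101 FPKM), Top2a (0.297 and 0.325 FPKM) and Eomes (0.0333 and 0.143 FPKM) were under 1 FPKM in both, so no regional excess of dividing cells was detectable in these pooled values.

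Markers of neighbouring regions were checked beside the neuronal lists. Of 15 measured genes of striatal medium spiny neurons, 7 were at least 2-fold lower in hippocampus and 3 higher, and with matched loci 4 of 8 were lower and 1 higher. Ppp1r1b, the phosphoprotein DARPP-32, was at 26.8 and 10.7 FPKM (-1.32) and Drd2, with a differing locus, at 2.24 and 0.421 FPKM (-2.41). The 3 on the other side were Lrrc10b, Tac1 (1.63) and Foxp1 (1.22). Tac1 and Foxp1 had differing loci, and that of Foxp1 is shared with another gene. In the TRF2-depleted groups Tac1 was at 5.62 and 6.59 FPKM (0.23), while the ratio was 1.95 for Foxp1 and 1.55 for Lrrc10b. Lrrc10b, at 1.68 and 12.9 FPKM (2.94), had the largest ratio of the measured members in either direction. Several genes of the list, Drd1a and Ppp1r1b among them, are also expressed in deep cortical layers. The summed level of the list was 104 FPKM in cortex and 78.5 FPKM in hippocampus, Adora2a was at 0.000187 and 0.314 FPKM, and Penk at 3.52e-05 and 1.5e-05 FPKM. Adora2a and Penk entered no counts, had no row that the authors tested in either tissue, and Penk had a differing locus. Whether these values mean absence was not tested. The part of striatal tissue in the layer results was not tested. Of 8 thalamic genes 1 was at least 2-fold higher (Prkcd, 1.23 and 3.84 FPKM) and 0 lower (with matched loci 1 of 5 and 0), with Gbx2 listed at 0 in both. Of 11 hypothalamic genes 1 reached 1 FPKM (Cartpt, 3.21 and 0.892 FPKM), and of 7 olfactory bulb genes 0 did in control. In TRF2-depleted cortex the olfactory bulb genes summed to 8.73 FPKM, against 1.17 FPKM in control cortex. In hippocampus the sums were 1.84 FPKM (control) and 2.21 FPKM (depleted). S100a5, a calcium-binding protein of olfactory neurons, was listed at 0 in control cortex and was at 3.07 FPKM in TRF2-depleted cortex (q = 0.00864 in the authors' deposited table), and Doc2g was at 0.493 and 2.41 FPKM in these groups. The part of such tissue in the second reading was not tested.

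Choroid plexus, the secretory tissue of the ventricles that lies against the hippocampus, gave the highest list median. Of 10 measured markers, 8 were at least 2-fold higher in hippocampus and 0 lower, with a median 1.38 above that of all genes, and with matched loci 3 of 4 were higher. Ttr, the thyroxine carrier transthyretin, was at 93.3 FPKM in control cortex and 264 FPKM in control hippocampus (2.83-fold). In the TRF2-depleted groups it was at 1.15 and 472 FPKM, so its level in cortex was not stable between pools. The authors' deposited table gives q = 0.00864 for Ttr between control and TRF2-depleted cortex. Kl, which encodes the hormone co-receptor klotho, was at 1.12 and 5.83 FPKM (2.39), and Tmem72 at 0.189 and 1.38 FPKM (2.87). The 15 listed markers summed to 149 FPKM in control cortex and 331 FPKM in control hippocampus. In the TRF2-depleted groups they summed to 47.8 and 562 FPKM. The unadjusted list median was 1.48 in control and 4.21 in the TRF2-depleted pair, so the size of this difference was not stable between pools. Genes of ciliated ependyma had 2 of 5 higher, Foxj1 (1.12) and Rsph1 (1.22), and with matched loci 0 of 2.

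Meningeal genes leaned to cortex and vessel genes lay near equality. Of 15 meningeal fibroblast genes 12 had ratios below 0, with a median 0.54 below that of all genes, and all 19 listed summed to 319 FPKM in cortex and 223 FPKM in hippocampus. In the TRF2-depleted groups their unadjusted median was 0.16 and the sums were 292 and 345 FPKM. At 2-fold, 2 were lower, Slc6a20a (-2.43) and Slc13a4 (-1.13), and 1 was higher (with matched loci 0 and 1 of 11). That gene, Dcn, encodes the matrix proteoglycan decorin and was at 3.54 and 17.3 FPKM (2.29), while the collagens Col1a1 (-0.50) and Col1a2 (-0.74) were on the cortical side. Of 16 endothelial genes 0 differed by 2-fold in either direction, with Cldn5, the tight-junction protein, at 8.79 and 9.21 FPKM (0.07). Pericyte and smooth muscle genes had 1 of 9 higher (Acta2, smooth muscle actin, at 0.00624 and 2.85 FPKM) and 0 lower. With matched loci 0 of 13 endothelial and 0 of 4 pericyte genes differed by 2-fold.

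Glial genes were mostly level, with a few astrocyte genes higher in hippocampus. Of 23 astrocyte genes 5 were at least 2-fold higher and 1 lower, with a median 0.26 above that of all genes, and with matched loci 2 of 12 were higher and 0 lower. Gfap, the intermediate filament of fibrous and hippocampal astrocytes, was at 22.0 FPKM in cortex and 64.0 FPKM in hippocampus (1.54). Agt, the angiotensin precursor, was at 1.32 and 6.83 FPKM (2.37), and Slc6a11, the GABA transporter GAT-3, at 5.25 and 18.1 FPKM (1.79). The exception was Chrdl1, a secreted antagonist of bone morphogenetic proteins, at 2.72 and 0.392 FPKM (-2.79). General astrocyte genes were close to equal, with Aldoc at 149 and 156 FPKM and Glul, glutamine synthetase, at 302 and 309 FPKM. In microglia 19 of 20 genes were within 2-fold, and the other, P2ry12 (0.961 and 12.3 FPKM), had a differing locus and was listed at 0 in TRF2-depleted cortex. In oligodendrocytes 2 of 22 were higher and 1 lower (with matched loci 1 and 0 of 10), with Mbp, the myelin basic protein gene, at 454 and 420 FPKM.

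Ionotropic glutamate receptors differed by subunit. AMPA receptors carry fast excitation, and their auxiliary subunits set trafficking and gating. Of 19 genes, 3 were at least 2-fold higher in hippocampus and 5 lower. Gria1 was at 26.5 and 53.9 FPKM (1.03), Gria2 at 58.0 and 71.4 FPKM (0.30), Gria3 at 6.87 and 3.08 FPKM (-1.16) and Gria4 at 15.6 and 9.43 FPKM (-0.73). The auxiliary subunit Cnih2 was at 44.1 and 131 FPKM (1.58) and Cacng3 at 36.9 and 16.0 FPKM (-1.20). Subunits thus lay on both sides. Only 3 of the 19 genes had matched loci (0 higher and 2 lower), and the 4 Gria genes were not among them. Of 6 NMDA receptor genes 1 was higher (Grin2c, 1.06), and Grin1, the obligatory subunit, was at 39.7 and 38.1 FPKM (-0.06). Among 9 kainate and delta receptor genes Grik2 (-1.12) and Grik3 (-1.02) were lower and Grik4 and Neto2 (1.00) higher. In the TRF2-depleted groups 1 of the 9 was at least 2-fold higher and 0 lower, and Grik4 had a ratio of -0.06. With matched loci 0 of 2 NMDA and 0 of 2 kainate and delta receptor genes differed by 2-fold. Of 7 metabotropic receptors 1 was higher and 2 lower, Grm3 (-1.15) and Grm8 (-5.43, at 1.07 and 0.0249 FPKM). With matched loci 1 of 1 was higher, and in the TRF2-depleted groups 3 were higher and 1 lower, with Grm8 at 0.744 and 1.68 FPKM.

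Among 14 GABA receptor genes, 3 were at least 2-fold higher in hippocampus and 0 lower, and with matched loci 2 of 7 were higher. Gabra5, the subunit of extrasynaptic receptors on hippocampal pyramidal neurons, was at 5.38 and 15.2 FPKM (2.83-fold), and Gabrb2 at 9.90 and 29.8 FPKM (1.59), both with matching loci. Gabrb1 had a ratio of 1.03. Gabrd, the delta subunit, was at 5.50 and 5.51 FPKM (0.00).

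Potassium and HCN channel genes were 2-fold different in the cortical direction alone. Of 54 measured, 13 were at least 2-fold lower in hippocampus and 0 higher, with a median 0.37 below that of all genes. Kcnj9, a G-protein-gated inward rectifier, was at 14.2 and 1.84 FPKM (-2.94), and Kcna2, an axonal channel, at 8.07 and 2.49 FPKM (-1.69). The ether-a-go-go family contributed Kcnh5, Kcnh4 (-1.77), Kcnh3 (-1.54), Kcnh1 (-1.16) and Kcnh7 (-1.15). In the TRF2-depleted groups 14 of 54 were lower and 1 higher. This pattern was not seen where loci matched: of 22 channel genes with matched loci, 1 was at least 2-fold lower (Kcnab3, an auxiliary subunit, -1.45) and 0 higher, with an unadjusted median of -0.10 against 0.11 for all 6164 genes. Hcn2 (0.01) was level. Of 22 sodium and calcium channel genes 5 were higher, led by Cacnb2 (2.29) and Scn3b (1.47), and 2 lower, Cacna1d (-1.35) and Cacnb4 (-1.22), and with matched loci 0 of 3 differed. The ratio of Scn8a, 1.08 from its summed rows, became -3.43 when only rows that the authors tested in both tables were used.

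Receptors for monoamines, acetylcholine, adenosine, opioids and cannabinoids were divided. Of 33 measured, 6 were at least 2-fold higher in hippocampus and 8 lower, and with matched loci 3 of 15 were higher and 1 lower. Drd5, the D5 dopamine receptor, was at 0.236 FPKM in cortex and 3.53 FPKM in hippocampus (3.91), and Drd1a and Drd2 were lower as given above. For serotonin, Htr5b (0.286 and 2.17 FPKM, 2.92), Htr1a (2.34 and 6.04 FPKM, 1.37) and Htr2c (1.34) were higher in hippocampus, and Htr2a (7.04 and 2.62 FPKM, -1.43) was higher in cortex. For noradrenaline, the alpha-1 receptors Adra1b (4.03 and 0.404 FPKM, -3.32) and Adra1a (-2.87) were higher in cortex, while Adra1d was at 12.2 and 17.2 FPKM (0.49). Receptors of 1 transmitter therefore lay on opposite sides. Chrna7, the alpha-7 nicotinic receptor, had a ratio of 1.06 and Chrm2, a muscarinic receptor, one of -1.23. Of 12 steroid, thyroid and retinoid receptors 2 were higher and 1 lower (with matched loci 0 of 4). Nr3c2, the mineralocorticoid receptor, was at 5.11 and 11.96 FPKM (1.23), and Nr3c1, the glucocorticoid receptor that shares its ligand, at 8.13 and 8.13 FPKM (0.00). Thra, a thyroid hormone receptor, was at 2.05 and 17.0 FPKM (3.05) with a differing locus.

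Guidance and adhesion genes, which pattern connections in development and persist in the adult, had members on both sides. Over all genes, 8.43% were at least 2-fold higher in hippocampus and 8.05% lower. The counts of other guidance genes and of cadherins given below were not far above these shares. Of 16 Eph receptors and ephrins 4 were at least 2-fold higher and 2 lower (with matched loci 0 and 2 of 8). Efna5, a repellent ephrin, was at 6.33 and 1.39 FPKM (-2.18) with a matching locus, and the receptors Epha6 (5.38 and 15.9 FPKM, 1.56) and Epha7 (10.1 and 23.1 FPKM, 1.19) were higher in hippocampus. Of 36 other guidance genes 4 were higher and 5 lower (with matched loci 2 and 3 of 18). Sema3a, a secreted semaphorin, was at 5.08 and 0.728 FPKM (-2.80), whereas Nrp2, a semaphorin receptor (chromosome 1 from 62703317 to 62818692), was at 2.20 and 7.91 FPKM (1.85) and Slit1, a ligand of Robo receptors, at 1.66 and 10.4 FPKM (2.64). Robo1 had a ratio of 1.62. Of 21 cadherins 2 were higher, Pcdh20 (3.65 and 14.3 FPKM, 1.97) and Pcdh8 (4.62 and 13.6 FPKM, 1.56), and 3 lower, among them Cdh6 (-1.58), and with matched loci 1 of 8 was higher and 2 lower. Of 6 C1q-like and cerebellin genes, C1ql2 was higher and Cbln2 lower (-1.09). Bcan, the perineuronal proteoglycan brevican, was at 5.64 and 23.5 FPKM (2.06), but its ratio was -0.043 when only rows tested in both tables were used.

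Immediate early genes, which neurons transcribe within minutes of activity, were lower in hippocampus. Of 32 measured, 14 were at least 2-fold lower and 2 higher, with a median 0.83 below that of all genes. With matched loci 8 of 22 were lower and 1 higher. Egr1 was at 100 FPKM in cortex and 33.7 FPKM in hippocampus (-1.57), and Egr2, a related zinc-finger factor, at 6.02 and 0.927 FPKM (-2.70). Arc, which acts in AMPA receptor removal, was at 99.98 and 38.4 FPKM (-1.38). Fos was at 16.4 and 5.60 FPKM (-1.55), and Dusp1, a phosphatase of MAP kinases, at 13.7 and 4.87 FPKM (-1.49). All of these kept the cortical side in the TRF2-depleted groups, at -1.31 for Egr1, -1.81 for Egr2, -1.05 for Arc, -0.91 for Fos and -0.66 for Dusp1.

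The family was not uniform. Jun was at 8.55 FPKM in cortex and 25.1 FPKM in hippocampus (1.55), and Nr4a2, an orphan nuclear receptor, was also higher in hippocampus (2.46, with a differing locus). Jund (25.7 and 25.7 FPKM, 0.00), Junb (-0.07), Btg2 (-0.08) and Bdnf (0.13) were level. In the TRF2-depleted groups 8 of 32 were lower and 2 higher, and the list summed to 508 and 332 FPKM against 631 and 336 FPKM in control, so the second reading gave a smaller regional difference, with lower values in cortex. In the authors' deposited table the cortical comparison of control with TRF2-depleted mice gave q = 0.00864 for Arc, for Nptx2 and for Per1, q = 0.0957 for Egr1 and q = 0.0555 for Egr2. The labels give neither the handling of the mice nor the time to dissection, and their part in these levels was not tested.

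**Figure D5:**
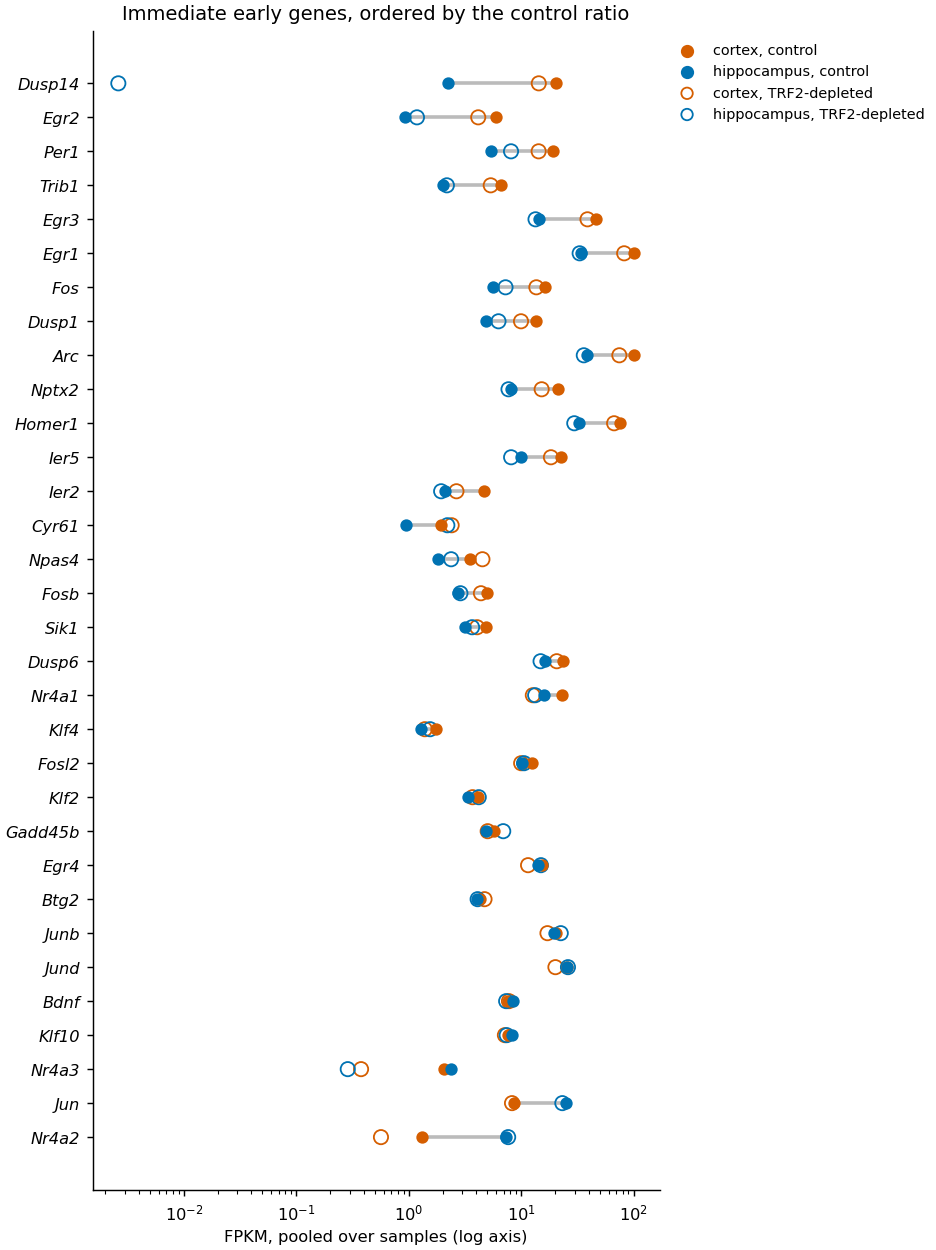
Pooled FPKM (log axis) of 32 immediate early genes in cortex (orange) and hippocampus (blue), control as filled and TRF2-depleted as open points, ordered by the control ratio from most cortical (top) to most hippocampal (bottom). From Dusp14 to Cyr61 the control hippocampus lies at least 2-fold to the left of the control cortex, while Jun and Nr4a2 lie to the right.

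Promoters of 3 of these genes are shown because the genes belong to 1 class and lie on opposite sides of the comparison. Each is the 250 bases before the RefSeq start on the coding strand (GRCm38.p6), with matches in capitals. The motifs marked, searched on both strands, are the TATA box TATAAA and the cyclic AMP response element TGACGTCA. The CArG box, the site of serum response factor, was searched as well, as were the letters CAGATG (an E-box), CCAAT and GGGCGG (a GC box). Fos lies at chr12:85473640-85473889 on the plus strand with a TATA match at -33. Dusp1 lies at chr17:26508473-26508722 on the minus strand with a TGACGTCA match at -143. Nr4a2 lies at chr2:57124004-57124253 on the minus strand with a TATA match on the opposite strand at -164.
Fos: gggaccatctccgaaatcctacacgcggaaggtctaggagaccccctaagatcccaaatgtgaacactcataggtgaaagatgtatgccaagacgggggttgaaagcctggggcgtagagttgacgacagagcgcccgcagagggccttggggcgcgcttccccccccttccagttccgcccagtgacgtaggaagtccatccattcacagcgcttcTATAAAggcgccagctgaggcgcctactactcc
Dusp1: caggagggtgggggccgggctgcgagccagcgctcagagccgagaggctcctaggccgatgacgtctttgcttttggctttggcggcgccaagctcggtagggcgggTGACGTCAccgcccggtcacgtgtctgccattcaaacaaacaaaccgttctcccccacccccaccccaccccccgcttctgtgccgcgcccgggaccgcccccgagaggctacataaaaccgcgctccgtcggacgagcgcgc
Nr4a2: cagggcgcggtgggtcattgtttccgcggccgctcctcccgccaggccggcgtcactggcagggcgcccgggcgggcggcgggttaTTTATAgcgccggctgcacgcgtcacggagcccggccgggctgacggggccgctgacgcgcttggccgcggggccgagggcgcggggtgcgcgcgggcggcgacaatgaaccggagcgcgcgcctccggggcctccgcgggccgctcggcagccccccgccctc
Of the 32 genes 24 had a promoter in the RefSeq table, of which 4 held TATAAA, 2 held TGACGTCA and 0 a CArG box. CAGATG was in 3 of them, CCAAT in 7 and GGGCGG in 18. Over all genes with a promoter (9105), 6.01% held TATAAA, 2.89% TGACGTCA, 1.10% a CArG box, 9.26% CAGATG, 36.5% CCAAT and 61.1% GGGCGG in the same window. For the 8 genes at least 2-fold lower in hippocampus that had a promoter, 2 held TATAAA and 1 held TGACGTCA. With so few genes the counts describe these windows alone.

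Genes of general cell function set the scale for these differences. Of 24 synaptic vesicle genes 1 was at least 2-fold higher (Syp) and 1 lower, Stx1a (64.3 and 21.4 FPKM, -1.59), of which Stx1a had matched loci, and Slc17a7, the vesicular transporter that defines most cortical and hippocampal glutamate neurons, was at 227 and 239 FPKM (0.08). Cytosolic ribosomal protein genes had a median 0.11 above that of all genes, and 70 of 77 were within 2-fold (with matched loci 2 of 54 were higher and 2 lower). The exceptions were large: Rpl37 was at 1.27 and 93.7 FPKM (6.20), and Rps24 at 138 and 5.22 FPKM (-4.73). Nuclear genes of oxidative phosphorylation had 4 of 74 higher and 7 lower, with Sdhc (1.46 and 38.2 FPKM) on the higher side, and with matched loci 1 of 47 was higher and 2 lower. Of 24 housekeeping genes 21 were within 2-fold, with Gapdh at 236 and 250 FPKM (0.08) and Tfrc the farthest out, and with matched loci 0 of 13 differed. Single members of the ribosome and of the respiratory chain therefore lay far from the medians of their lists, on both sides.

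A stricter selection kept genes of at least 5 FPKM in the higher tissue, at least 1 FPKM in both, a matching locus not shared with another gene, and control and TRF2-depleted ratios within 0.5 of each other. It was chosen after the values were seen and uses them, so it describes the tables and tests nothing. Of 2430 genes that met it, 75 were at least 2-fold higher in hippocampus and 56 in cortex. C1ql2 led the hippocampal side, followed by Pkm (11.9 and 212 FPKM, 4.16), a glycolytic enzyme of all cells, and by Sez6 (1.33 and 9.69 FPKM, 2.87). Lpl, lipoprotein lipase, was at 1.37 and 7.47 FPKM (2.45), Crym, a thyroid-hormone-binding crystallin, at 19.9 and 76.9 FPKM (1.95), and Bhlhe22, a helix-loop-helix factor, at 6.87 and 24.97 FPKM (1.86). The cortical side was led by Rps24 and Cdc37 (21.1 and 1.17 FPKM, -4.18), a kinase chaperone of all cells, and then by Lamp5. Rgs4, a regulator of G-protein signalling, was at 128 and 36.3 FPKM (-1.81), and Hs3st2, a heparan sulfate sulfotransferase, at 11.8 and 2.81 FPKM (-2.07). Pkm, Rps24 and Cdc37 were therefore among the leaders after loci had been matched.

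Several dentate genes were at lower levels in TRF2-depleted than in control hippocampus. The dentate list summed to 190 FPKM in control and to 123 FPKM in depleted hippocampus, and to 115 and 109 FPKM in cortex. Its unadjusted median regional ratio was 1.37 in control and 0.89 in the TRF2-depleted pair, where 8 of 16 were at least 2-fold higher and 1 lower. Dsp was at 1.16 FPKM in TRF2-depleted hippocampus, Lct at 2.26 FPKM, C1ql2 at 11.4 FPKM and Stxbp6 at 8.44 FPKM. Their levels in TRF2-depleted cortex were 0.0159, 0.147, 0.562 and 4.21 FPKM, so that the regional ratio was 6.19 for Dsp (6.46 in control), 3.94 for Lct (5.19), 4.34 for C1ql2 (4.23) and 1.00 for Stxbp6 (1.66). For each of these 4 genes the authors' deposited table gives q = 0.0301 for the hippocampal comparison of control with TRF2-depleted mice. Prox1 was at 1.38 FPKM in TRF2-depleted hippocampus, with p = 0.00015 and q = 0.0764 in the authors' deposited table, and its regional ratio there was -0.14. In the CA1 list 4 of 8 genes were at least 2-fold higher in hippocampus in the TRF2-depleted pair and 1 lower, with an unadjusted median of 0.94 against 1.17 in control. Fibcd1 had a ratio of 4.36 and Wfs1 one of 1.12, Mpped1 had 0.76 against 1.17 in control, and Gpr161 was at 1.04 FPKM in depleted cortex and 0.0703 FPKM in depleted hippocampus (-3.89, against 0.81). Spink8 was listed at 0 in depleted cortex. Whether the regional ratios themselves differ between control and depleted mice was not tested.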

How the data were processed

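Total RNA was extracted on RNeasy columns and made into NEBNext Ultra libraries, per the labels' protocols. CASAVA 1.8, TopHat2, Cufflinks, Cuffdiff and the build mm10 are listed in the submitters' processing notes; for further versions, settings and the annotation, nothing is given in the sources used here. The authors deposited FPKM values pooled over replicates, 1 per condition and coding-sequence row (26348 rows per tissue), with a deposited p-value and q-value for control against TRF2-depleted, per the file headers. Those p-values and q-values are quoted for single genes only.

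Control FPKM was summed over the rows of each gene and joined by symbol. Left out were 25 symbols turned into dates, 7 genes with a row marked HIDATA, and rows of 1 condition that no label describes. Ratios used no pseudocount, and a locus counted as the same when both tables give the same span. Named genes were the 15 largest and 15 smallest ratios (at least 5 FPKM in the higher tissue, 2-fold the same way in both pairs), up to 3 per side listed at 0, the genes at the threshold, and for each of 47 lists up to 6 members with the largest and 3 with the smallest ratios plus defining members. Members and lists were chosen with earlier results of these data known. The restriction to matching loci, the near-0 level of 0.05 FPKM, the stricter selection, the immediate early promoters (in place of those of the extreme ratios) and any gene named outside that rule were chosen after seeing the data. The alternatives changed centring, scaling, pseudocount, minimum, rows and fold. Promoters came from RefSeq (GRCm38.p6). Calculations used Python 3.11.15, numpy 2.4.6, pandas 2.3.3 and matplotlib 3.10.9. On simulated levels split over rows, only the arithmetic of summing, ratios and 2-fold calls was checked. Joining by symbol and matching of loci were not part of that check. Some members of the lists are not reported here.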

Additional observations from a re-analysis of the deposited data

How the results depend on the processing

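No paired analysis was possible because the authors pooled the replicates into 1 value per condition, and for the same reason no replicate could be left out. The counts of genes at least 2-fold higher in hippocampus and in cortex, 957 and 914, were 586 and 590 after adding 1 FPKM to both values, 488 and 409 at a minimum of 5 FPKM, 1665 and 1404 without a minimum, and 414 and 536 from rows the authors tested in both tables. They were 1918 and 1529 at 1.5-fold and 311 and 350 at 4-fold. With settings chosen after seeing the data, they were 487 and 400 with the same locus in both tables and 583 and 496 with at least 1 FPKM in both tissues. The other settings stayed within 1.5 times, and centring on the median of all genes gave 822 and 1031. Of 593 list medians recomputed, 525 stayed within 0.25 of the reported value and 67 moved by more. Among medians of at least 1 in size 1 changed sign, that of layer 6b (0.62 at a minimum of 5 FPKM, where 2 genes remained). Of 2983 recomputed ratios of single genes, 2805 stayed within 0.5, 176 moved by more and 2 of at least 1 in size changed sign, Bcan (-0.043) and Scn8a (-3.43), both from rows tested in both tables. Read depth is unknown, so the precision of low values cannot be given.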

Other observations

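In 5 genes of at least 5 FPKM the 2 regional readings pointed to opposite sides by at least 2-fold. Dmxl2, a scaffold of synaptic vesicles, was at 1.34 FPKM in control cortex and 5.40 FPKM in control hippocampus, and at 3.91 and 0.689 FPKM in the TRF2-depleted groups. Ypel5 was at 5.41 and 16.3 FPKM in control and at 11.2 and 2.00 FPKM in the TRF2-depleted groups. Rap1a, a small GTPase, was at 0.877 and 5.09 FPKM in control and at 1.88 and 0.312 FPKM in the TRF2-depleted groups. Kif21a, a kinesin, had ratios of 1.02 and -1.20, and Krtcap2 ratios of 8.41 and -1.06. Whether these differ beyond the spread between samples was not tested.

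Of 6 measured genes of the shelterin complex, to which TRF2 belongs, 0 were at least 2-fold different between control tissues. Terf2 itself was at 3.59 FPKM in control cortex and 2.01 FPKM in control hippocampus (-0.84), Terf1 at 1.65 and 1.72 FPKM (0.06) and Acd at 4.49 and 7.39 FPKM (0.72).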
